A study of Mus musculus with 4 samples.

Results

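Molecular chaperones, the folding and quality-control machinery of the endoplasmic reticulum (ER) and the coat and cargo proteins of the early secretory pathway were followed in sorted meningeal lymphatic endothelial cells of aged mice. The members were the rows of the deposited table whose gene name belongs to one of these families: the heat shock proteins Hspa, Hspb, Hsph and Hsp90, the J proteins (Dnaj), Bag, Pdia, calreticulin, calnexin, calumenin, the ER-associated degradation genes, Xbp1, Ern1 and Ddit3, the translocon and its targeting factors, the COPII and COPI coats and the Tmed, Kdelr and Lman cargo receptors. Hspd1 and Hspe1, the mitochondrial chaperonin pair, were left out by the rule. This gave 94 of the 9114 rows of the table, and all 94 had a mean of at least 10 normalised counts and were tested. There were 2 libraries from mice given AAV1-CMV-mVEGF-C and 2 from mice given AAV1-CMV-eGFP, and the question was whether delivery of VEGF-C changed gene expression in these cells. VEGF-C (here the mouse protein) makes lymphatic vessels grow, enhanced green fluorescent protein served as control, and 5 µL of virus was injected into the cisterna magna 4 weeks before the cells were taken. All mice were C57BL/6J males of 20 to 24 months, and each library pooled the meninges of 10 mice. The CMV promoter is not specific to a cell type, so the labels do not say which cells made the VEGF-C, and every group had received a virus. Sorted cells excluded DAPI, lacked CD45 and carried both CD31 and podoplanin.

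Proteins destined for the surface, the extracellular space and the organelles of the secretory route are recognised as they leave the ribosome by the signal recognition particle and threaded into the ER through the Sec61 channel. In the ER lumen the Hsp70 protein BiP (Hspa5), the Hsp90 protein GRP94 (Hsp90b1), the lectin chaperones calnexin and calreticulin and the protein disulfide isomerases fold them, and misfolded chains are passed back to the cytosol by ER-associated degradation. Folded cargo leaves in COPII vesicles, and COPI vesicles with the KDEL receptors bring escaped ER proteins back. When unfolded proteins build up, the sensor IRE1 (Ern1) splices the Xbp1 transcript, and the sensors ATF6 and PERK act beside it in what is called the unfolded protein response. In the cytosol, Hsp70 and Hsp90 work with J proteins, which stimulate the ATPase of Hsp70. Nucleotide exchange factors such as some of the Bag proteins also work with Hsp70. Endothelial cells secrete von Willebrand factor, basement membrane proteins and growth factors along this route.

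The 4 libraries held 25610683 to 28632461 reads on the genes of the table, as recovered from the normalised counts, and the groups overlapped in depth. All 10 lymphatic markers listed for the check (among them Prox1, Flt4, Lyve1 and Pdpn) had a row, and their summed normalised counts were 612186 and 505012 in mVEGF-C, against 480413 and 551315 in eGFP libraries. All 8 endothelial markers had a row, with sums of 106811 and 108069 in mVEGF-C, against 84342 and 101098 in eGFP libraries. Both mVEGF-C sums were thus the higher ones. Of these 8 genes 5 had log2 fold changes above 0, and limma called none. Of 10 fibroblast markers 7 had a row, with sums of 88115 and 55518 in mVEGF-C, against 86630.3 and 41531 in eGFP libraries, so fibroblast transcripts were present in both groups and were higher in the first library of each. Of 9 leukocyte markers 3 had a row. Ptprc, the gene for the sort marker CD45, had none, nor had Cd68, Csf1r, Cd79a, Lyz2 and C1qa. The sums of the 3 with a row were 28589 and 23429 in mVEGF-C, against 28289.7 and 33202 in eGFP libraries. Mrc1 carried these sums, at 28512.5 and 23299 normalised counts in mVEGF-C, against 27577 and 32880 in eGFP libraries (log2 fold change -0.22, limma adjusted p = 0.902). Resting on 1 gene, the sums do not by themselves measure leukocyte RNA. Itgam had 76.9 and 123 in mVEGF-C, against 698 and 310 in eGFP libraries (-2.25; limma, adjusted p = 0.501). Of 6 plasma cell markers none had a row. Of 7 glial and neuronal markers 3 had a row, with sums of 1432 and 485 in mVEGF-C, against 870.4 and 679.8 in eGFP libraries; among them Syt1 had 110.0 and 207 normalised counts in mVEGF-C, against 8.95 and 11.8 in eGFP libraries (3.75; limma, adjusted p = 0.116, unadjusted p = 0.00426). Of 8 mural cell markers 4 had a row, with sums of 12712 and 10108 in mVEGF-C, against 18643 and 15367 in eGFP libraries, both lower in mVEGF-C. Rgs5 made up most of these sums and stood at -0.56. Kcnj8 and Notch3 were at -1.22 and -2.74, while Pdgfrb was at 0.94, the 1 of the 4 above 0. The part of endothelial, mural, leukocyte or neural RNA in the values below was not tested. In no gene of the table did the replicates of a group differ by an SD over 2.999 (mVEGF-C) or 2 (eGFP) on log2(reads + 1); such ceilings look like a filter on replicate agreement, whose rule is not given in the sources used here, and under one the spread is understated and the p-values below are too small by an unknown amount. The labels do not say how the pools relate to separate litters or days, so the p-values rest only on the spread between these libraries. In the limma fit this was the spread common to genes of like level, not a gene's own spread. In bulk samples, fewer cells of a type and less RNA per cell cannot be told apart.

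Few chaperone and secretory genes were called different between the mVEGF-C and the eGFP libraries. Of the 94 members, 1 was called higher (Sec22c) and 1 lower (Dnajc5) by limma at an adjusted p under 0.05, which is 2.13% of them, against 2.14% of the 9063 genes tested (0.828% higher and 1.31% lower). The members' share of calls was close to that of the whole table. With edgeR 0 members were called higher and 1 lower (Dnajc5), against 1.61% of all genes (0.739% higher and 0.872% lower), and with DESeq2 1 higher and 3 lower, against 6.63% (3.12% higher and 3.51% lower). At an unadjusted p under 0.05 there were 1 higher and 3 lower members, against 11.8% of all genes (5.09% higher and 6.7% lower). Those 4 were Sec22c, Dnajc5, Dnajc21 and Hspa14, which are also the 4 that DESeq2 called, so the counts of 0 given below for roles without these genes hold for limma, edgeR and DESeq2 and at an unadjusted limma p under 0.05. Log2 fold changes were above 0 for 47 members and below 0 for 47, the median was 0.0023 against -0.016 over all genes, and the median absolute log2 fold change was 0.72 against 0.79. The 2 groups did not overlap for 33 members (35.1%; 15 higher and 18 lower), against 39.2% of all genes (19.4% higher and 19.8% lower). Fold changes are differences of log2(normalised count + 1), mVEGF-C minus eGFP, and are given with the standard error (SE) of the fit. That SE reflects the spread common to genes of like level, not a gene's own spread. Summed over the 94 members, the normalised counts were 314417 and 301971 in the mVEGF-C libraries, against 288162 and 325257 in the eGFP libraries, so the sums overlapped between the groups. As a share of all normalised counts of a library they were 1.10% and 1.14% in the mVEGF-C libraries, against 1.17% and 1.19% in the eGFP libraries, lower in both mVEGF-C libraries. Exact two-sided permutation tests gave p = 1 for the sum and p = 0.333, the smallest p that 2 against 2 libraries allow, for the share.

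**Figure D1:**
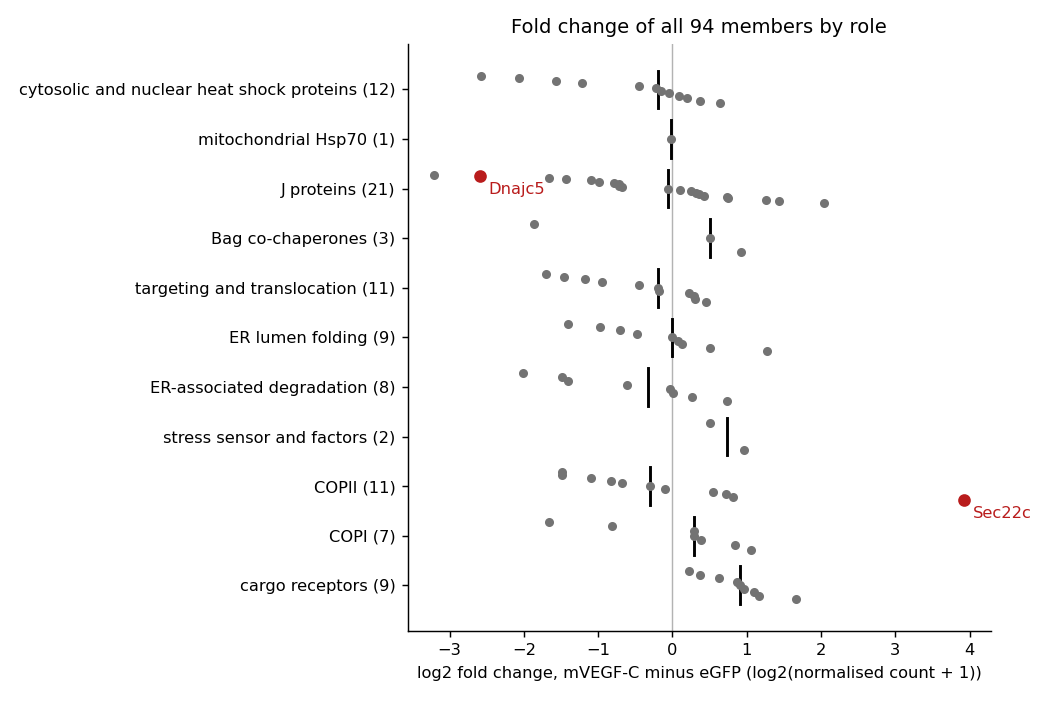
Log2 fold change (mVEGF-C minus eGFP, on log2(normalised count + 1)) of each of the 94 members (points), by role with the number of members in brackets; black bars are the medians of the groups and red points the 2 members called by limma. All 9 cargo receptors lie above 0, while the other larger groups lie on both sides of it.

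By level per length, the folding machinery of the ER and the constitutive cytosolic chaperones led the members. Mean normalised counts per kilobase of annotated exon over the 4 libraries were 5455 for Hsp90b1, 5000.1 for Hspa8 and 4952 for Hsp90ab1, whose ranges over the libraries overlapped (4548 to 6759, 3529 to 6311 and 3759 to 6863). Next came Calr at 2419, Hspa5 at 2263 and the disulfide isomerase Pdia3 at 2262, again with overlapping ranges. The lowest of the 93 members with a length was the stress-inducible Hsp70 gene Hspa1a, at 16.3 per kilobase. Of the 94 members, 19 (20.2%) had a mean of at least 5000 normalised counts, against 10.4% of all genes tested.

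In the cytosolic and nuclear heat shock group, the constitutive chaperones were abundant and the stress-inducible Hsp70 genes sparse in every library. None of the 12 genes was called by limma or edgeR, and DESeq2 called Hspa14 lower. Of the 12, 4 had log2 fold changes above 0, and the median was -0.19 (-0.56 to -0.083 with 1 library left out). Hspa8, the constitutive Hsp70 (HSC70), had 27145 and 25229.8 normalised counts in the mVEGF-C libraries, against 18469 and 15177 in the eGFP libraries. Each mVEGF-C value exceeded each eGFP value, and the log2 fold change was 0.64 ± 0.39 (SE; limma, adjusted p = 0.565). Hsp90ab1, the constitutive Hsp90, had 15388 and 12161 normalised counts in the mVEGF-C libraries, against 11273 and 20584 in the eGFP libraries. Here the eGFP libraries held both the highest and the lowest value, and the difference was -0.16 (95% interval -1.07 to 0.76). Hsp90aa1, the inducible Hsp90, had 6464 and 6392 normalised counts in the mVEGF-C libraries, against 6185 and 5049 in the eGFP libraries (log2 fold change 0.20, SE 0.66). Reads of Hspa8, Hsp90ab1 and Hsp90aa1 can be shared with processed pseudogenes of these families, so their levels are uncertain to that extent.

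The inducible pair Hspa1a and Hspa1b are near-identical neighbours on chromosome 17 whose reads can be split between them. Hspa1a had 15.0 and 25.1 normalised counts in the mVEGF-C libraries, against 27.8 and 125 in the eGFP libraries, and Hspa1b had 101 and 8.36 normalised counts in the mVEGF-C libraries, against 153 and 108 in the eGFP libraries. Both were lower in both mVEGF-C libraries than in either eGFP library, with log2 fold changes of -1.56 ± 1.31 (SE) and -2.06 ± 1.31 (SE), and neither was called (limma, adjusted p = 0.749 and 0.598). Without mVEGF-C 2 the value of Hspa1b was -0.34. Of 12 immediate early genes that tissue dissociation is known to induce, 6 had a row, with sums of 18145 and 24631 in mVEGF-C, against 16499 and 19788 in eGFP libraries; the groups overlapped in that sum, 3 of the 6 were above 0 and limma called none. The sum was carried by Egr1, at 11206 and 13653 normalised counts in mVEGF-C, against 8492 and 10024 in eGFP libraries. Atf3, a stress-induced transcription factor, had 17.1 and 7.43 normalised counts in mVEGF-C, against 141 and 254 in eGFP libraries. It was lower in both mVEGF-C libraries than in either eGFP library (-3.95, SE 1.31, limma adjusted p = 0.084 and unadjusted p = 0.00261). Fos and Btg2 stood at -1.16 and -1.04, while Egr1, Jun and Zfp36 stood at 0.42, 0.41 and 0.54. The part of stress during dissociation in the Hspa1a and Hspa1b values was not tested. The small heat shock gene Hspb1 differed between libraries of the same group more than between groups, at 265 and 1603 normalised counts in the mVEGF-C libraries, against 401 and 1974 in the eGFP libraries. The remaining members of the group were Hspa4, an Hsp110-type exchange factor, at 0.37, the atypical Hsp70 genes Hspa12a at -1.22 and Hspa12b at 0.088, and 2 genes that bear the name without being heat shock proteins of the classical kind, Hspb11 (the intraflagellar transport protein IFT25) at -0.23 and Hspbap1 at -0.043. The mitochondrial Hsp70 Hspa9 had 708 and 5298 normalised counts in the mVEGF-C libraries, against 1712 and 2273 in the eGFP libraries, with both extremes in the mVEGF-C libraries (log2 fold change -0.026).

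Hspa14, an Hsp70 that works at the ribosome with the J protein Dnajc2, had one of the lowest fold changes of all members. It had 231 and 224 normalised counts in the mVEGF-C libraries, against 545 and 3374 in the eGFP libraries. Both mVEGF-C values lay below both eGFP values, and the value of eGFP 2 stood far above the other 3. The log2 fold change was -2.57 ± 1.16 (SE), and it was not called (limma, adjusted p = 0.309; DESeq2, adjusted p = 0.0227); without eGFP 2 it was -1.26. Its partner Dnajc2 had 784 and 435 normalised counts in the mVEGF-C libraries, against 432 and 851 in the eGFP libraries (log2 fold change -0.055). The annotated protein-coding gene Gm45902 overlaps Hspa14 on the same strand.

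Among the 21 J proteins, Dnajc5 was called lower, 10 had log2 fold changes above 0 and the median was -0.055, with a range of -3.20 to 2.04. The median depended on single libraries: it was -0.71 with 6 of 21 above 0 without mVEGF-C 1, and 0.15 with 12 of 21 above 0 without mVEGF-C 2. Dnajc5 (chromosome 2, 181520485 to 181555133, GRCm38) encodes cysteine string protein, a membrane-anchored J protein of secretory vesicles known from neurons. It had 1279 and 2268 normalised counts in the mVEGF-C libraries, against 4265 and 24772 in the eGFP libraries. The groups did not overlap, but most of the gap came from eGFP 2, which held 5.81 times the value of eGFP 1. The means were 1773 ± 699 in mVEGF-C cells, against 14518 ± 14500.4 in eGFP cells (SD over 2 libraries each). The log2 fold change was -2.59 ± 0.75 (SE; limma, adjusted p = 0.0328), and edgeR (adjusted p = 0.0025) and DESeq2 (adjusted p = 0.0274) called it too. With eBayes without trend it was not called (limma, adjusted p = 0.367). Without eGFP 2 it was -1.32 and not called (limma, adjusted p = 0.999), and without mVEGF-C 1 it was -2.18 and not called (adjusted p = 0.169).

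Dnajc21, a J protein of ribosome maturation, had the lowest fold change of all members, at 66.2 and 291 normalised counts in the mVEGF-C libraries, against 495 and 3354 in the eGFP libraries. Again eGFP 2 held the highest value by far, and the libraries of each group differed by 4.34 times in mVEGF-C and 6.76 times in eGFP. The log2 fold change was -3.20 ± 1.19 (SE; limma, adjusted p = 0.157; DESeq2, adjusted p = 0.0219), and -1.82 without eGFP 2. On the other side were Dnajc8, a J protein associated with the splicing machinery, at 1.44 ± 1.11 (SE), and Dnaja2, a close relative of Dnaja1, at 1.26 ± 0.95 (SE); Dnaja2 was 0.15 without eGFP 2. Dnaja1, a cytosolic partner of Hsp70, had 7040.0 and 10763 normalised counts in the mVEGF-C libraries, against 7885 and 6191 in the eGFP libraries, a difference of 0.32 ± 0.60 (SE). Dnajc7, which binds both Hsp70 and Hsp90, had 353 and 1304 normalised counts in the mVEGF-C libraries, against 2772 and 1669 in the eGFP libraries (-1.66, SE 1.04), and Dnaja4 had 470.0 and 521 normalised counts in the mVEGF-C libraries, against 963 and 1162 in the eGFP libraries (-1.09, SE 1.12). Both were without overlap, lower in mVEGF-C and not called. The cytosolic Dnajb4, Dnajb5 and Dnajb6 stood at 0.25, -0.72 and 0.10, the mitochondrial Dnajc11 and Dnajc19 at 0.36 and -0.79, Dnajc18 at -0.72 and Dnajc13 at 0.73. The genes of the Bag family were on both sides. Bag3, which is known to link Hsp70 to selective autophagy, had 2649 and 2500.1 normalised counts in the mVEGF-C libraries, against 1056 and 1745 in the eGFP libraries (log2 fold change 0.92, SE 0.94), Bag6 differed by 0.50, and Bag5 had 168 and 529.6 normalised counts in the mVEGF-C libraries, against 438 and 2718 in the eGFP libraries (-1.87, SE 1.16), with eGFP 2 above the other 3 libraries.

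The machinery that brings proteins into the ER gave no call. Of its 11 genes 4 had log2 fold changes above 0, the range was -1.70 to 0.45, the median was -0.19 (-0.66 to -0.23 with 1 library left out), and none was called. Ssr1, a subunit of the translocon-associated TRAP complex, had 5364 and 8027 normalised counts in the mVEGF-C libraries, against 4046 and 13792 in the eGFP libraries (log2 fold change -0.19), and its partner Ssr3 differed by -0.19. Sec61a1, the pore subunit of the Sec61 channel, had 3124 and 2286 normalised counts in the mVEGF-C libraries, against 2969 and 4511 in the eGFP libraries (-0.45, 95% interval -2.07 to 1.16), and the small subunit Sec61g differed by 0.30. Sec63, which recruits BiP to the channel, had 9811 and 7732 normalised counts in the mVEGF-C libraries, against 8536 and 4735 in the eGFP libraries (0.45), and Sec62, which acts with it, stood at -0.94. The 4 protein subunits of the signal recognition particle that were among the members, not all of its subunits, were on both sides: Srp68, Srp19 and Srp72 were at -1.70, -1.46 and -1.18, and Srp14 was at 0.22. The signal peptidase subunit Spcs3 had its highest and its lowest value in the mVEGF-C group, at 3896 and 254 normalised counts in the mVEGF-C libraries, against 1445 and 455 in the eGFP libraries.

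The folding genes of the ER lumen were centred near 0. None of the 9 was called, 4 had log2 fold changes above 0, the median was -0.0062 (-0.23 to 0.21 with 1 library left out), and the group's summed normalised counts were 65014 and 70605 in the mVEGF-C libraries, against 69504 and 54084 in the eGFP libraries. GRP94 (Hsp90b1, chromosome 10, 86690209 to 86705509) had 27251 and 18879 normalised counts in the mVEGF-C libraries, against 23512 and 18339 in the eGFP libraries, a log2 fold change of 0.13 ± 0.39 (SE). The difference between its 2 mVEGF-C libraries was larger than that between the group means. BiP (Hspa5, chromosome 2, 34771970 to 34777547) had 4047 and 13562 normalised counts in the mVEGF-C libraries, against 11337 and 9328 in the eGFP libraries. Its lowest and its highest value were both in mVEGF-C libraries, so that the difference of -0.47 became 0.40 without mVEGF-C 1 and -1.35 without mVEGF-C 2. Calreticulin (Calr, chromosome 8, 84841850 to 84846934) had mVEGF-C values that both exceeded the eGFP values, at 7636 and 11846 normalised counts in the mVEGF-C libraries, against 5640.4 and 2749 in the eGFP libraries. Its log2 fold change of 1.27 ± 0.66 (SE, 95% interval -0.020 to 2.56) did not pass (limma, adjusted p = 0.435), and it was 0.75 without eGFP 2 and 1.79 without eGFP 1. Calnexin (Canx), the membrane-bound relative of calreticulin, had 8194 and 7722 normalised counts in the mVEGF-C libraries, against 8556 and 3655 in the eGFP libraries (0.51, SE 0.64). Pdia3, the disulfide isomerase that works with both lectins, had 5744 and 8555 normalised counts in the mVEGF-C libraries, against 7489 and 6618 in the eGFP libraries, a difference of -0.0062 (95% interval -1.23 to 1.22). The calcium-binding protein calumenin (Calu) differed by 0.073. The lower values were those of Pdia4, another disulfide isomerase, at 411 and 579.7 normalised counts in the mVEGF-C libraries, against 1519.6 and 1108 in the eGFP libraries (-1.41, SE 1.11), of the BiP exchange factor Hyou1 at -0.98 and of the Hsp70-like Hspa13 at -0.70.

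Several of these genes are textbook targets of the unfolded protein response, and the sequences before their start sites were read to see which carry its elements. RefSeq (GRCm38.p6) windows of 250 bases before the start were at hand for 76 of the 94 members. The ER stress response element, spelled CCAAT and CCACG with 9 bases between them and searched on both strands, was found in 5 of the 76 (6.58%), against 0.13% of 27025 genes with a window: Hspa5, Hsp90b1, Calr, Canx and Dnajc3. The shorter variant, ATTGG and CCACG with 1 base between them, was found in 1 member, Herpud1 (0.037% of all genes), together with the amino acid response element TGATGCAA (0.918% of all genes). The heat shock element, GAA, TTC and GAA with 2 bases between neighbours, was found in 2 members, Sec62 and Dnajb6 (0.514% of all genes), and the element TGACGTGG in Copb1 and Dnajc25 (0.603% of all genes). The long ER stress element holds a CCAAT box, which alone is in 37.5% of all windows and 44.7% of the members' windows. A match describes the letters and not a site in use. Because known targets of the response are among the members, the higher share of ER stress elements was foreseeable and is no result of these data. The 6 windows with an ER stress element are printed here. Each reads 5′ to 3′ on the gene's strand and ends at the base before the RefSeq start. Capitals mark the elements named above for that gene.
Hspa5 (chr2:34771840-34772089, plus strand): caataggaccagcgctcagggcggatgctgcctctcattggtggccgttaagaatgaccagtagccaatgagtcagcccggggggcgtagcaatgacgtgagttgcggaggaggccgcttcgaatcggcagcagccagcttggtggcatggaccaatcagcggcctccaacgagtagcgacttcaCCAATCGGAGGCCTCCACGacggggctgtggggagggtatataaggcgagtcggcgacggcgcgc
Hsp90b1 (chr10:86705445-86705694, minus strand): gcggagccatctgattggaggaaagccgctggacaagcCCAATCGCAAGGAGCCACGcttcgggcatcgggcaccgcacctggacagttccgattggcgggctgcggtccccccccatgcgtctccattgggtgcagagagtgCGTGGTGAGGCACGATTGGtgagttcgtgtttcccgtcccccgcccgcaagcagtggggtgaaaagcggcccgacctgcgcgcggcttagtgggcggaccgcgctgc
Calr (chr8:84846932-84847181, minus strand): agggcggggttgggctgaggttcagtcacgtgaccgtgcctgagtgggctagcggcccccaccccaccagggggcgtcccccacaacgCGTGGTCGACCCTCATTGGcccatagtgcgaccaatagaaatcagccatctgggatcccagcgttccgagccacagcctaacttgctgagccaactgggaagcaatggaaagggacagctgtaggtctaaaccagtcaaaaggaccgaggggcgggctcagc
Canx (chr11:50325674-50325923, minus strand): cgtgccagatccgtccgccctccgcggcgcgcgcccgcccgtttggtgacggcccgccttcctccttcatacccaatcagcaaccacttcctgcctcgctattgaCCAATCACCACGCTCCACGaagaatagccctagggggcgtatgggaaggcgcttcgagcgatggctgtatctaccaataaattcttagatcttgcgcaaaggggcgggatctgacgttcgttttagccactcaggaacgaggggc
Dnajc3 (chr14:118937682-118937931, plus strand): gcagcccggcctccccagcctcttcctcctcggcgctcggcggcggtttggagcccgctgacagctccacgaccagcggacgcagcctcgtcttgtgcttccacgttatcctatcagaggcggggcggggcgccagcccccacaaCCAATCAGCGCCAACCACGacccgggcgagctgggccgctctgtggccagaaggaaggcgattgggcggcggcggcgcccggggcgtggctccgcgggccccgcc
Herpud1 (chr8:94386179-94386428, plus strand): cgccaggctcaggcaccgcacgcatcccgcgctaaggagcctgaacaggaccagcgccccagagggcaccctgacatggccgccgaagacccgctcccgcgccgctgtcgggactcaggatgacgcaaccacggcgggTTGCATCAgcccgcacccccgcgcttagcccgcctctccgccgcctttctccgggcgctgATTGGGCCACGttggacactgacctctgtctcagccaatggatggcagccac

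The 6 genes printed above stood on both sides of 0. On the log2 scale Calr stood at 1.27, Canx at 0.51, Dnajc3 at 0.43, Hsp90b1 at 0.13, Hspa5 at -0.47 and Herpud1 at -0.61, and none was called. Hsp90b1 carries the element at 2 places and Hspa5 at 1, and both had differences smaller than their SEs. Dnajc3 (P58IPK), a J protein of the ER lumen, had 8393 and 10693 normalised counts in the mVEGF-C libraries, against 7438 and 6658 in the eGFP libraries; both mVEGF-C values were above both eGFP values, by less than the SE of 0.59. Dnajb9 (ERdj4, chromosome 12, 44205559 to 44210326), a J protein that partners BiP and restrains IRE1, had the second highest fold change of all members. It had 1698 and 1385 normalised counts in the mVEGF-C libraries, against 586 and 236 in the eGFP libraries. The groups did not overlap, and the log2 fold change was 2.04 ± 1.12 (SE, 95% interval -0.15 to 4.23), which did not pass (limma, adjusted p = 0.488; edgeR, 0.546; DESeq2, 0.189). It lay between 1.39 and 2.69 with any 1 library left out. The transcription factor Xbp1 had 2653 and 4408 normalised counts in the mVEGF-C libraries, against 2295 and 2505 in the eGFP libraries (0.51, SE 0.84); its spliced and unspliced forms cannot be told apart at gene level. Ddit3 (CHOP), a factor induced under prolonged stress, had 39.5 and 198 normalised counts in the mVEGF-C libraries, against 15.2 and 130.4 in the eGFP libraries, and differed more between libraries of a group than between groups. Of 44 genes listed by function, 9 had no row in the table and could not be read. They were Ern1, Sdf2l1, Pdia6, Sec61b, Srp54a, Spcs1, Sec24d, Hsph1 and Dnajb1. The other BiP partners were on both sides: Dnajb11 (ERdj3) at -0.99, Dnajc10 (ERdj5), a reductase, at -1.44, Dnajc1 (ERdj1) at -0.68 and Dnajc25 at 0.74, with none called.

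**Figure D2:**
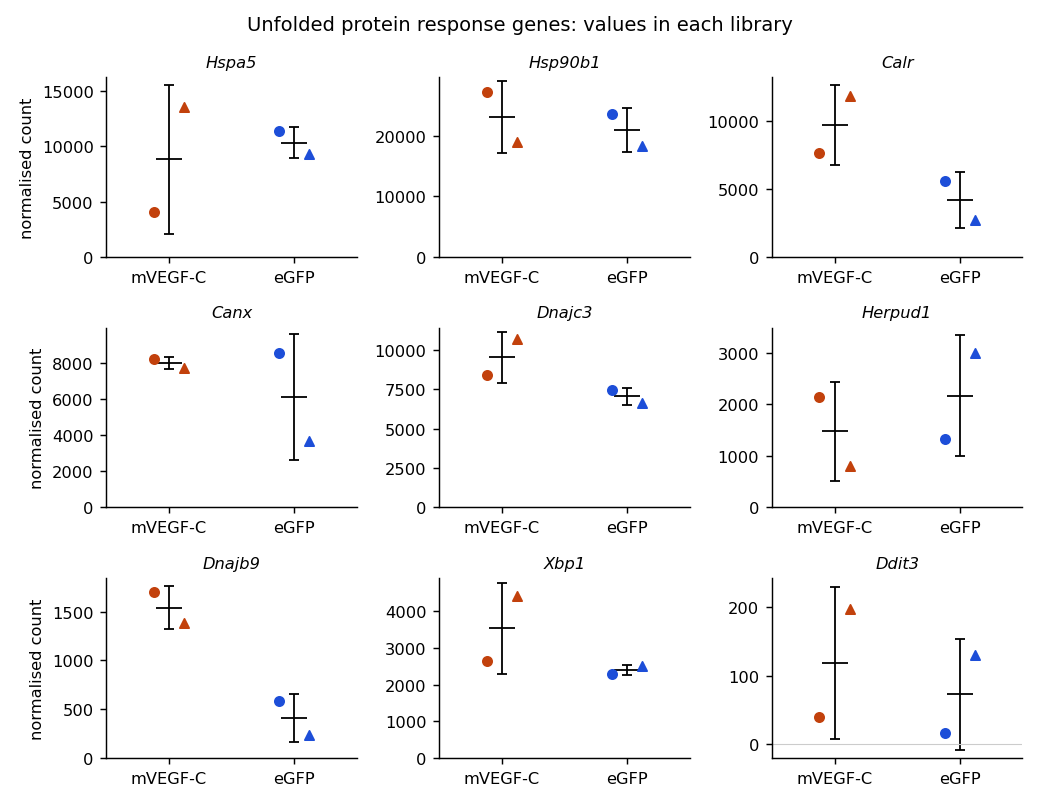
Normalised counts (linear axis from 0) in each library for 9 unfolded protein response genes; circles are replicate 1 and triangles replicate 2, and bars give the mean ± SD of 2 libraries. For Calr, Dnajb9, Dnajc3 and Xbp1 the mVEGF-C points all lie above the eGFP points, while Hspa5, Canx, Herpud1, Hsp90b1 and Ddit3 overlap.

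ER-associated degradation genes lay on both sides of 0, with no call. Of the 8 genes 3 were above 0, against 49.5% of all genes, with a median of -0.32, and the summed normalised counts were 15193 and 10069 in the mVEGF-C libraries, against 18439 and 20396 in the eGFP libraries. The sums of the mVEGF-C libraries were both below those of the eGFP libraries. Derl1, a component of the retrotranslocation channel, had 183 and 354 normalised counts in the mVEGF-C libraries, against 1433 and 743 in the eGFP libraries, without overlap of the groups (-2.02, SE 1.17; limma, adjusted p = 0.536). Edem3, which trims mannose from misfolded glycoproteins, had 1906 and 1506 normalised counts in the mVEGF-C libraries, against 2921 and 7711 in the eGFP libraries (-1.49, SE 0.85). Herpud2 stood at -1.41, with its highest value in eGFP 1, at 5203 normalised counts against 966 in eGFP 2. Herpud1, an ER membrane protein of this pathway, had 2154 and 798 normalised counts in the mVEGF-C libraries, against 1336 and 3001 in the eGFP libraries (-0.61). Sel1l, the adaptor of the HRD1 ubiquitin ligase, had 7775 and 2863 normalised counts in the mVEGF-C libraries, against 5177 and 2987 in the eGFP libraries (0.26, SE 0.74), so the 2 mVEGF-C libraries enclosed both eGFP libraries. The homologues Edem1 and Edem2 were at 0.011 and 0.74, and Derl2 at -0.038. Without mVEGF-C 1 the group's median was -0.89, and without mVEGF-C 2 it was -0.42.

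Sec22c was the 1 member called higher. Sec22c (chromosome 9, 121680045 to 121705490, GRCm38, minus strand) encodes an ER protein of the Sec22 family, and no other annotated gene overlaps it. It had 3122 and 936 normalised counts in the mVEGF-C libraries, against 143 and 86.6 in the eGFP libraries. Both mVEGF-C values lay far above both eGFP values, and the 2 mVEGF-C libraries differed by 3.33 times from each other. The means were 2029 ± 1546 in mVEGF-C cells, against 115 ± 40.1 in eGFP cells (SD over 2 libraries each), and the log2 fold change was 3.93 ± 1.19 (SE; limma, adjusted p = 0.0459; DESeq2, adjusted p = 0.000251). The call was close to the threshold: edgeR gave an adjusted p of 0.0565, a pseudocount of 5 or another scaling gave 0.0564 to 0.059, and it was lost without eGFP 1, eGFP 2 or mVEGF-C 1 (limma, adjusted p = 0.249, 0.835 and 0.338), while the log2 fold change stayed between 3.06 and 4.80. Its relative Sec22b, the SNARE of ER-to-Golgi vesicles, had 185 and 1644 normalised counts in the mVEGF-C libraries, against 1039 and 2313 in the eGFP libraries (-1.49, SE 1.08).

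The COPII coat itself, which buds vesicles from ER exit sites, was spread around 0. Of 11 genes with Sec22b and Sec22c 4 were above 0, with a median of -0.30, which was 0.084 with 6 of 11 above 0 without mVEGF-C 1, and the summed normalised counts were 36095 and 36836 in the mVEGF-C libraries, against 31086 and 41443 in the eGFP libraries. Sec16a, the scaffold of the exit sites, had 5291 and 6896 normalised counts in the mVEGF-C libraries, against 8742 and 13192 in the eGFP libraries; the groups did not overlap and the log2 fold change was -0.83 ± 0.59 (SE; limma, adjusted p = 0.668). Sec31a, of the outer cage, was even at 6271 and 9943 normalised counts in the mVEGF-C libraries, against 8086 and 8869 in the eGFP libraries (-0.10), while its partner Sec13 stood at -1.09 with wide spread in both groups. The paralogues Sec23a and Sec23b, the GTPase-activating subunits, were at 0.81 and -0.67, and Sec23a had 6857 and 1628 normalised counts in the mVEGF-C libraries, against 1216 and 2971 in the eGFP libraries, with the highest of the 4 values in mVEGF-C 1. The cargo adaptors Sec24a, Sec24b and Sec24c stood at 0.54, 0.72 and -0.30, and Sec24a was higher in each mVEGF-C than in each eGFP library. Sec23ip, which binds Sec23, was at -1.48, without overlap.

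The cargo receptors were the 1 larger group on a single side of 0: all 9 lay above 0 (median log2 fold change 0.91), against 49.5% above 0 over all genes. None was called, the lowest adjusted p being 0.557 (limma), and 3 of the 9 had no overlap between groups. Their summed normalised counts were 31780.3 and 21846 in the mVEGF-C libraries, against 17679.6 and 13314 in the eGFP libraries, so both mVEGF-C sums were above both eGFP sums. Tmed4, of the p24 family of cargo receptors that cycle between ER and Golgi, led with 3209 and 2088 normalised counts in the mVEGF-C libraries, against 1281 and 515 in the eGFP libraries (1.67, SE 1.00). Tmed10, the p24 member that works with the others of the family, had 2928 and 3319 normalised counts in the mVEGF-C libraries, against 1491 and 2713 in the eGFP libraries (0.63, SE 0.88), and Tmed5 had 2930.3 and 2676 normalised counts in the mVEGF-C libraries, against 2601 and 855 in the eGFP libraries (0.91). These 3 were the ones whose groups did not overlap. Tmed7 had 7143 and 3266 normalised counts in the mVEGF-C libraries, against 3821 and 1321 in the eGFP libraries (1.10, SE 0.81), the annotated gene Ticam2 overlaps it on the same strand, and Tmed8 was at 0.97. Of the lectin cargo receptors, Lman1 (ERGIC-53), which carries coagulation factors, had 3001 and 5162 normalised counts in the mVEGF-C libraries, against 2741 and 4169 in the eGFP libraries (0.22), and Lman2 was at 1.16. Of the KDEL receptors, which retrieve ER chaperones from the Golgi, Kdelr1 had 1451 and 541 normalised counts in the mVEGF-C libraries, against 847 and 552 in the eGFP libraries (0.37) and Kdelr2 had 5639 and 2096 normalised counts in the mVEGF-C libraries, against 1583 and 2246 in the eGFP libraries (0.87, SE 0.87). With each library left out in turn 8 of the 9 were above 0, and the median lay between 0.34 without eGFP 2 and 1.71 without eGFP 1. Fibroblast marker sums, given above, were not ordered by group, while the lowest values of 5 of the 9 receptors and of the fibroblast sum were all in eGFP 2 and the highest values of 7 of the 9 and of the fibroblast sum in mVEGF-C 1; the part of fibroblast RNA in these values was not tested.

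**Figure D3:**
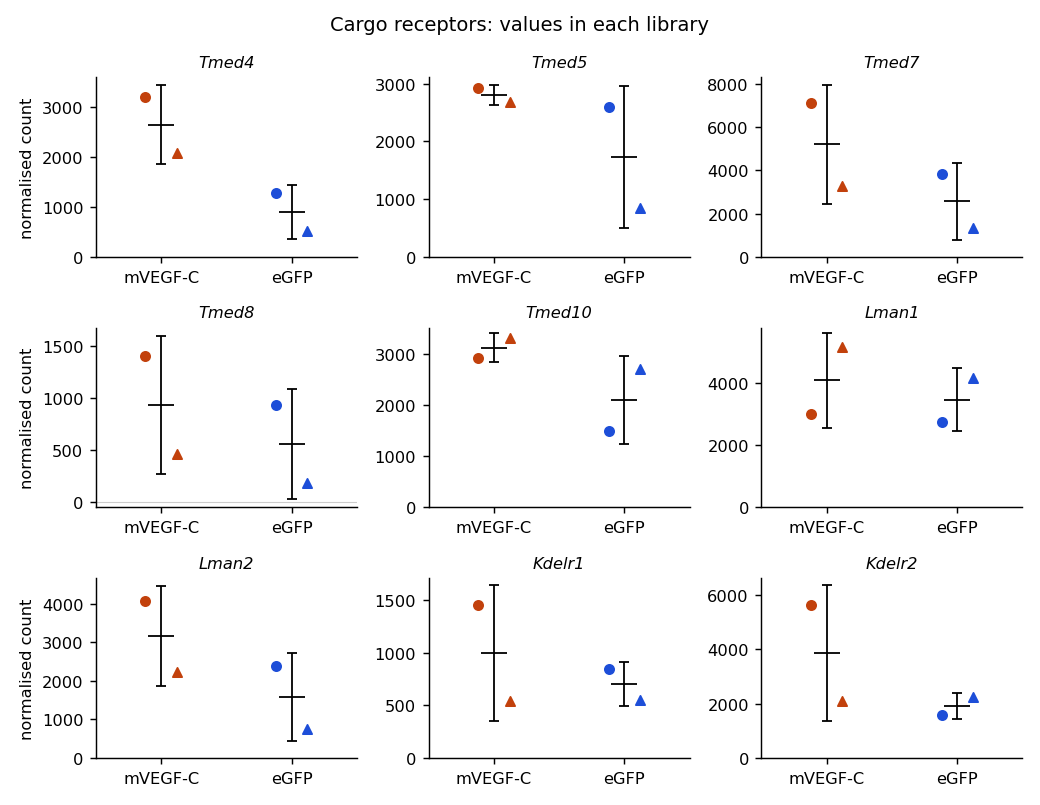
Normalised counts (linear axis from 0) of the 9 cargo receptor genes in each library; circles are replicate 1 and triangles replicate 2, and bars give the mean ± SD of 2 libraries. For Tmed4, Tmed5 and Tmed10 the mVEGF-C points all lie above the eGFP points, and the groups overlap for the other 6.

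Of the 7 member genes of the COPI coat, which returns material to the ER, 5 were above 0, against 49.5% of all genes. Their median was 0.29, with no call. They are not the whole coat, as the delta subunit Arcn1 fell outside the naming rule and is given below. Without eGFP 2 the median was -0.0067 with 3 of 7 above 0. The summed normalised counts were 18839 and 21625 in the mVEGF-C libraries, against 15887 and 15284 in the eGFP libraries, again with both mVEGF-C libraries on top. Copa, the largest subunit, had 9516 and 7994 normalised counts in the mVEGF-C libraries, against 6393 and 6996 in the eGFP libraries, without overlap but with a log2 fold change (0.38) smaller than its SE of 0.61. Copb1 had 2515 and 4049 normalised counts in the mVEGF-C libraries, against 3206 and 2110.1 in the eGFP libraries (0.29), Copb2 was at 0.84 and Cope at 0.29. The paralogues of the gamma subunit were on opposite sides, Copg2 at 1.06 and Copg1 at -0.81; Mest, which overlaps Copg2 on the other strand, also has a row, and the strand setting of the counting is not given in the sources used here. Copz2 was the lowest, at -1.66 ± 1.27 (SE).

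Other genes of the same pathways, from a list of 121 genes outside the naming rule, were read beside the members. Of them 78 were tested, 43 had log2 fold changes above 0, the median was 0.27 (-0.031 with 38 of 78 above 0 without eGFP 2, and 0.048 without eGFP 1), and limma called 0 higher and 1 lower, with 2 and 2 at an unadjusted p under 0.05. The called gene, also the only one of the list called by edgeR and DESeq2, was Use1, a SNARE of the Golgi-to-ER route, at 7.48 and 0 normalised counts in the mVEGF-C libraries, against 775 and 234 in the eGFP libraries (-7.20, SE 1.31; limma, adjusted p = 4.47e-05). Both mVEGF-C libraries were close to 0, and the size of the fitted value rests on the pseudocount. The call was lost without eGFP 1 and eGFP 2 (limma, adjusted p = 0.145 and 0.0593), with log2 fold changes of -6.34 and -8.06. The highest was Arcn1, the delta subunit of COPI, at 10939 and 9399 normalised counts in the mVEGF-C libraries, against 4249.8 and 1086 in the eGFP libraries; the groups did not overlap, and the log2 fold change was 2.24 ± 0.72 (SE; limma, adjusted p = 0.0724), and 1.25 without eGFP 2. Tram2, a translocon-associated protein linked to collagen synthesis, had 4937 and 6112 normalised counts in the mVEGF-C libraries, against 1443 and 1400.3 in the eGFP libraries (1.95, SE 0.85; limma, adjusted p = 0.28), and the SNARE Bnip1 was at 1.78. At the other end were the prefoldin subunit Pfdn5 at -2.45 and Prkcsh, a subunit of ER glucosidase II, at -2.36, neither called; Pfdn5 was -0.53 without mVEGF-C 1 and Prkcsh -1.05 without mVEGF-C 2.

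The libraries of a group lay closer together for abundant members than for the rest. Among the 19 members with a mean of at least 5000 normalised counts, the libraries of a group differed by a median of 0.38 in mVEGF-C and 0.59 in eGFP on the log2 scale, close to the 0.48 and 0.56 of all genes at that level. Among the other 75 the medians were 1.05 and 1.11. The widest gap in mVEGF-C was that of Dnajc13, an endosomal J protein, with 3341 normalised counts in mVEGF-C 1 and 180.2 in mVEGF-C 2. Absolute log2 fold changes above 1 were seen in 2 of the 19 abundant members (10.5%), against 13.3% of all genes at that level, and in 28 of the other 75, against 40.5% of all genes at any level. Of the 94 members, 31 had their highest value in mVEGF-C 1, 17 in mVEGF-C 2, 17 in eGFP 1 and 29 in eGFP 2. With each library left out in turn, 43 of the 94 members changed the sign of their fold change at least once and 51 kept it.

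**Figure D4:**
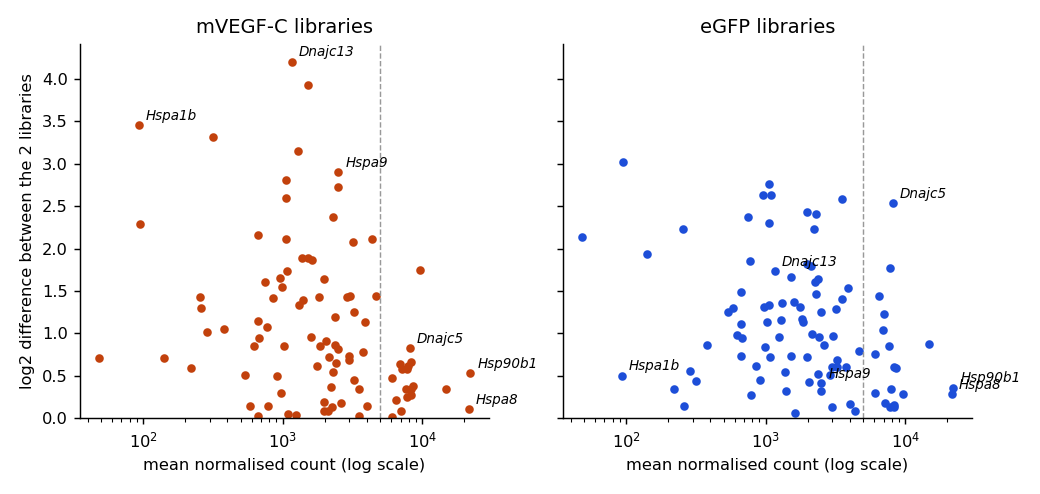
Absolute log2 difference between the 2 libraries of a group for each of the 94 members against its mean normalised count over the 4 libraries (log axis), for mVEGF-C and eGFP; the dashed line is at 5000. Abundant members such as Hspa8 and Hsp90b1 have small gaps, and Dnajc5 stands out among abundant members in eGFP.

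**Figure D5:**
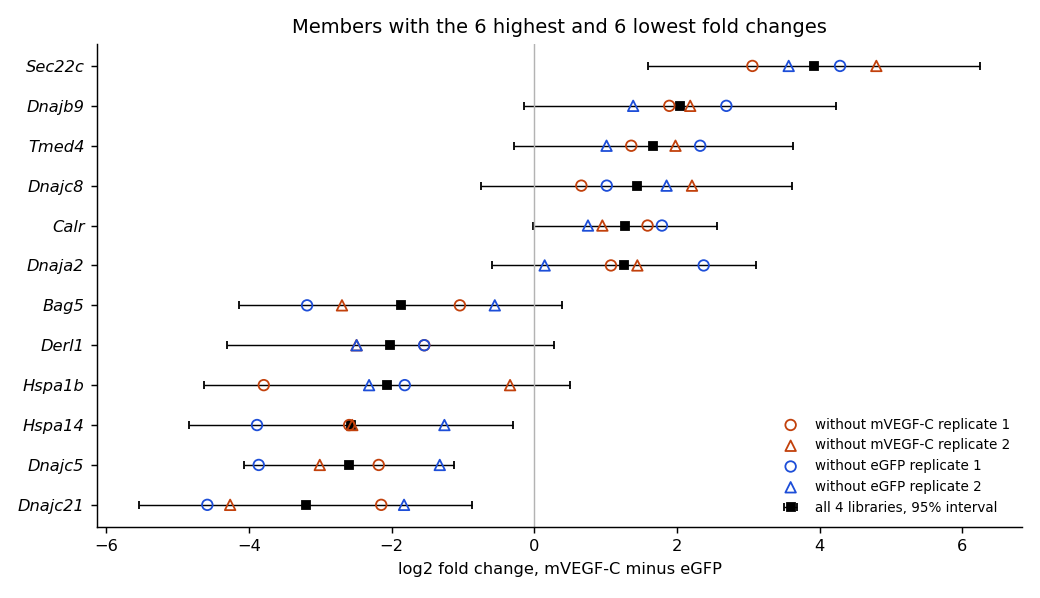
Log2 fold change (mVEGF-C minus eGFP) of the members with the 6 highest and the 6 lowest values among those with a mean of at least 50; black squares with 95% intervals are the fit to all 4 libraries, and open symbols the fit without 1 library. All 12 keep their sign, and the lowest 3 (Hspa14, Dnajc5 and Dnajc21) move towards 0 without eGFP replicate 2.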

How the data were processed

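The deposited table gives a signal, the normalised counts of the authors, for 9114 genes in 4 libraries. Per the submitters' processing notes FastQC, Trimmomatic, Salmon and DESeq2 were used with mm10, without versions. Every value was a whole multiple of the smallest value of its library (100% whole within a tolerance of 0.001), and dividing by it gave the reads, 25610683 to 28632461 per library. Coordinates and exon lengths (1-based, all exons of a gene merged) are from GENCODE vM21 on GRCm38, found for 93 of the 94 members, and promoters from RefSeq. The main test was limma 3.58.1 in R 4.3.3 (lmFit, eBayes with trend) on log2(normalised count + 1) for 9063 genes (mean 10 or more), two-sided, with Benjamini-Hochberg adjustment over all of them. The prior degrees of freedom were infinite, so a gene's own spread did not enter its SE, interval or p-value. Alternatives were other pseudocounts, filters and scalings, eBayes without trend, a replicate block, edgeR 4.0.16 and DESeq2 1.42.0 on the recovered reads, and leaving out each library. The fits were also run on simulated data in which every gene had the same spread. In these libraries the spread varied with level, so that run does not vouch for the p-values given here. Genes named were the called members, the 6 highest and 6 lowest fold changes with a mean of at least 50, the most abundant of each role and a list by function; the other members are given so that each role is described in full. The members and lists were chosen with earlier results of these data known.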

Additional observations from a re-analysis of the deposited data

How the results depend on the processing

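Of all genes, 75 were called higher and 119 lower; with a mean of at least 100 these were 45 and 75, without trend 15 and 26, with edgeR 67 and 79, with DESeq2 283 and 318, and with 1 library left out 5 to 104 and 0 to 188. The fewest came without eGFP 2, where an unadjusted p under 0.05 was reached by 1 member on each side. Among the members, Sec22c (log2 fold change 3.93) was the 1 called higher, and 0 were called higher with a pseudocount of 5 (3.88), a mean of at least 100 (3.93), no trend (3.93), upper quartile (3.85) or total scaling (3.84) or edgeR (4.15). Dnajc5 was the 1 called lower; 0 were without trend, and 3 in DESeq2, with Dnajc21 and Hspa14. With 1 library left out, 0 to 1 members were called higher and 0 to 2 lower. The members' median of 0.0023 was -0.071 with upper quartile and -0.081 with total scaling, which moved all genes by -0.071 and -0.081, 0.054 in edgeR, 0.032 in DESeq2 and -0.16 to 0.013 with 1 library left out. Among the named genes, signs changed for Edem1 (-0.063 and -0.073 with the scalings, -0.14 in edgeR, -0.17 in DESeq2), Hspa9 (0.62 in edgeR, 0.59 in DESeq2) and Pdia3 (0.042 and 0.019). Of the other members, Dnajb6 (-0.14 and -0.16), Sec24c (0.18 and 0.15) and Hspbap1 (0.11 and 0.095) had the other sign in edgeR and DESeq2. With libraries left out, the ranges of the named genes that changed sign were Canx -0.11 to 1.12, Copb1 -0.049 to 0.64, Ddit3 -0.55 to 2.47, Edem1 -0.91 to 0.94, Herpud1 -1.33 to 0.11, Hsp90ab1 -0.59 to 0.28, Hsp90b1 -0.14 to 0.39, Hspa5 -1.35 to 0.40, Hspa9 -1.48 to 1.43, Hspb1 -1.74 to 0.85, Kdelr1 -0.34 to 1.08, Lman1 -0.17 to 0.61, Pdia3 -0.29 to 0.28, Sec23a -0.22 to 1.85, Sec31a -0.43 to 0.23, Sel1l -0.46 to 0.98, Ssr1 -1.07 to 0.70. The causes were not tested. The labels do not say whether libraries with the same replicate number share a day or batch. Across genes the difference of replicate 1 and 2 in mVEGF-C correlated with that in eGFP at r = 0.00013. That value cannot show that the libraries were unpaired, so a pairing is unknown. The fit with the replicate block called 74 genes higher and 129 lower, among them 1 member on each side, Sec22c and Dnajc5. With 2 libraries per group a library measure cannot reach an exact permutation p under 0.333.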

Other observations

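Genes of the other arms of the unfolded protein response were looked at after their values were seen. Atf6, the sensor cut in the Golgi, had 5239.9 and 4709 normalised counts in the mVEGF-C libraries, against 2258 and 1910.2 in the eGFP libraries; the groups did not overlap, and the log2 fold change of 1.26 ± 0.82 (SE) did not pass (limma, adjusted p = 0.615; 1.14 to 1.38 with 1 library left out). Eif2ak3 (PERK) had 3115 and 884 normalised counts in the mVEGF-C libraries, against 475 and 667 in the eGFP libraries, also without overlap (1.56, SE 1.08; limma, adjusted p = 0.648); it was 0.65 without mVEGF-C 1 and 2.47 without mVEGF-C 2. Atf4, the factor translated when PERK is active, had 719 and 124 normalised counts in the mVEGF-C libraries, against 741 and 805 in the eGFP libraries. These groups did not overlap either, here with mVEGF-C lower. Its log2 fold change of -1.36 ± 1.18 (SE) lay between -2.62 and -0.10 with 1 library left out. Eif2s1, also on the pathway list, had 1169 and 449 in mVEGF-C, against 3334 and 1872 in eGFP libraries. It too was lower without overlap (-1.78, SE 1.01, limma adjusted p = 0.517). P4hb, the founding protein disulfide isomerase and a subunit of collagen prolyl hydroxylase, had 7365 and 6562 normalised counts in the mVEGF-C libraries, against 4269 and 1998 in the eGFP libraries (1.25, SE 0.73; limma, adjusted p = 0.546; 0.70 to 1.80 with 1 library left out), while Pdia4 of the same family stood at -1.41. Groups that do not overlap were seen for 39.2% of all genes.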
